A study of Mus musculus with 6 samples.

Results

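Transcript levels were compared between EYFP reporter cells with both Neurog3 alleles and wild-type intestinal epithelium of the mouse, across all genes of the deposited count table. The groups were chosen by genotype and title, and held 4 of the 6 RNA-seq libraries of the study. The EYFP cells came from mice labelled Neurog3+/+EYFP on a mixed C57BL6 and CD1 background and, per the design text of the study, were isolated by flow sorting of reporter cells, as 2 libraries. The wild-type group comprised 2 libraries of epithelial cells from C57BL6 mice. Their titles carry the abbreviation Duod, and the labels do not describe them as sorted. The other 2 libraries, sorted EGFP cells from C57BL6 mice labelled Neurog3+/-EGFP, served to estimate the spread and as a side comparison. The sources used here give no ages, no gates, no gut segment for the sorted cells and no number of animals per library. Nothing in the labels says that the libraries of a group came from separate animals, so p-values measure the spread between these samples only.

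Neurog3 is a basic helix-loop-helix transcription factor that commits progenitors in the intestinal crypt to the enteroendocrine lineage. Its transcript is present only briefly, whereas a fluorescent protein made under its control lasts longer, so that a reporter sort can hold cells from the progenitor stage onward. Enteroendocrine cells are scattered among absorptive, goblet, Paneth and tuft cells, store peptide hormones or serotonin in dense-core granules and release them upon stimulation. In wild-type epithelium most cells are absorptive. In bulk RNA a higher level of a transcript can come from more cells of a type or from more RNA per cell, and these cannot be told apart here. Sorting, strain background and genotype differ between the groups together and cannot be told apart either.

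The 2 EYFP libraries held 12415664 and 10173137 estimated counts and the 2 wild-type libraries 13674214 and 20589683. Levels are given as CPM, the count of a gene scaled to a common library total, which are not divided by transcript length, so that they compare a gene between libraries and not genes with each other. Replicates correlated at r = 0.975 for EYFP and 0.981 for wild type over the log2 CPM of 13935 genes. The first principal component, which held 74.4% of the variance, placed both EYFP libraries on one side and both wild-type libraries on the other. Among the EYFP and wild-type libraries, wild-type replicate 2 stood apart in sex-linked genes. Xist, the RNA that silences an X chromosome, was at 0.634 and 2.36 CPM in EYFP cells against 1.17 and 726 CPM in wild type. Ddx3y, a Y-linked helicase gene, was at 37.3 and 39.3 CPM in EYFP cells against 62.4 and 0.121 CPM in wild type. The ribosomal RNA gene Rn45s took between 0.178% and 1.93% of the counts of a library.

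Neurog3 itself was at 563 and 348 CPM in EYFP cells against 6.0 and 6.39 CPM in wild type, and at 119.5 and 179 CPM in the EGFP libraries. Both EYFP libraries lay above all others, and the gene was higher than in wild type (log2 fold change 6.20, SE 0.35, adjusted p = 1.33e-05, edgeR's quasi-likelihood test with Benjamini-Hochberg adjustment over all genes, as for every adjusted p given here). Of 13935 genes tested, 3778 (27.1%) were higher and 4668 (33.5%) lower in EYFP cells than in wild type at an adjusted p under 0.05, so that 60.6% of genes were called in either direction. At 2-fold or more, 2851 genes (20.5%) were higher and 3087 (22.2%) lower. At 8-fold or more, 1405 genes (10.1%) were higher and 773 (5.55%) lower, so that the larger differences were more often rises. The median log2 fold change of all genes was -0.122 and became -0.00704 with DESeq2 size factors, against which the lists of genes below are to be read. Leaving out wild-type replicate 2 gave 3428 genes higher and 4232 lower. The balance of the calls turned without EGFP replicate 1, with 4224 higher and 3860 lower, and in a fit to the 4 EYFP and wild-type libraries alone, with 4184 higher and 3826 lower.

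**Figure D1:**
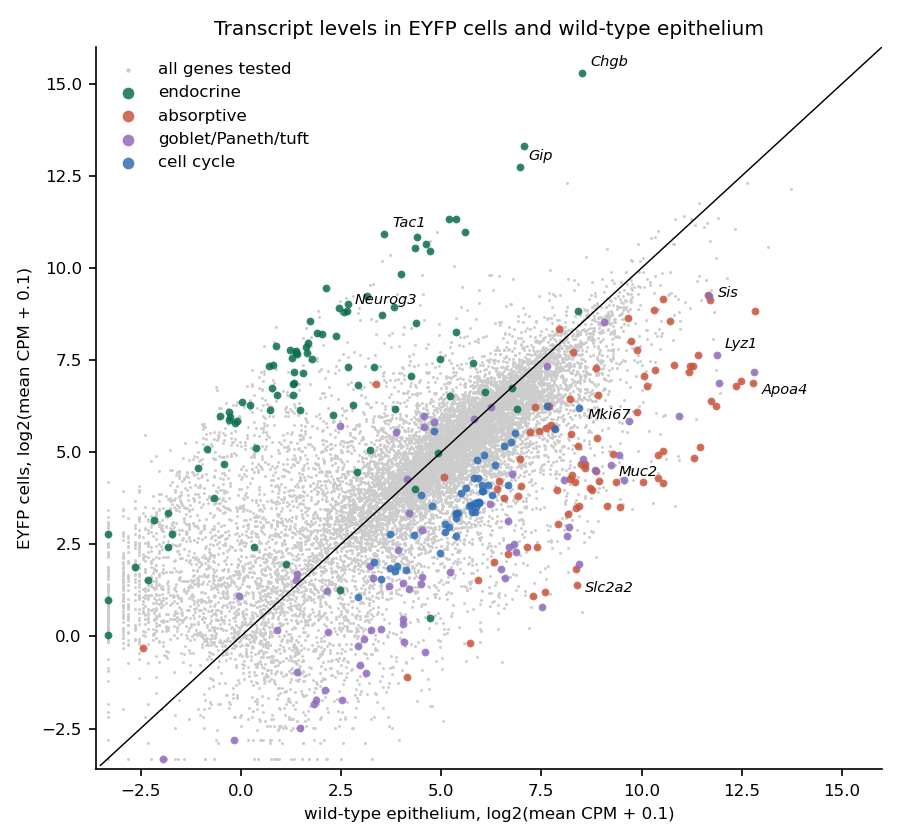
Mean level of each tested gene in wild-type epithelium (horizontal axis) and in EYFP cells (vertical axis), as log2 of CPM plus 0.1, with members of 4 sets of gene lists in colour and the line of equal levels in black. Most endocrine genes lie above the line, and most absorptive, goblet, Paneth, tuft and cell cycle genes below it.

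The transcription factors of the enteroendocrine lineage were higher in EYFP cells almost without exception. Of 27 factors, 26 were tested and 25 rose, with a median log2 fold change of 6.27 (6.25 with Lmx1b at its lower bound). Of the tested factors, 5 averaged less than the 0.829 CPM needed to enter the test in wild type and entered it through the sorted cells. Neurod1, a basic helix-loop-helix factor downstream of Neurog3, was at 545 and 488 CPM in EYFP cells against 6.66 and 6.03 CPM in wild type (log2 fold change 6.35, SE 0.22, adjusted p = 2.64e-06). Insm1, a zinc finger repressor of the endocrine lineages, was at 522 and 378 CPM in EYFP cells against 5.83 and 5.85 CPM in wild type (log2 fold change 6.27, SE 0.22, adjusted p = 2.64e-06). The values of both genes in the sorted libraries exceeded every wild-type value, and their replicates lay close together. Fev, a factor of serotonin-producing cells, was at 314 and 159.8 CPM in EYFP cells against 1.58 and 1.87 CPM in wild type (log2 fold change 7.08, SE 0.43, adjusted p = 2.85e-05). Lmx1a, a LIM homeobox factor of the same cells, was at 449 and 301 CPM in EYFP cells against 3.33 and 3.14 CPM in wild type (log2 fold change 6.86, SE 0.33, adjusted p = 7.37e-06). Both were higher in EYFP replicate 1 than in replicate 2.

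The factors named next were chosen after their values were seen. Pax4, a paired homeobox factor of early endocrine progenitors, was at 185 and 137 CPM in EYFP cells against 1.42 and 1.63 CPM in wild type. Rfx6, which acts in endocrine differentiation of gut and pancreas, was at 467 and 505 CPM in EYFP cells against 5.25 and 5.55 CPM in wild type. Isl1, a LIM homeobox factor of hormone-producing cells, was at 218 and 248 CPM in EYFP cells against 2.75 and 3.20 CPM in wild type. The EYFP libraries thus held transcripts of early and of late factors together. Lmx1b was counted 0 times in wild type and at 8.03 and 5.38 CPM in EYFP cells, which makes it at least 65.1-fold higher against a floor of 3 counts over the wild-type libraries. Smaller rises were seen for Sox4, a factor of progenitor cells, at 171 and 196 CPM in EYFP cells against 34.6 and 27.9 CPM in wild type, and for Foxa2, a forkhead factor, at 81.4 and 75.3 CPM in EYFP cells against 6.91 and 6.87 CPM in wild type. Mlxipl, a glucose-responsive factor found in many cells, was at 405 and 503 CPM in EYFP cells against 345 and 332 CPM in wild type and did not pass the test (log2 fold change 0.42, SE 0.16, adjusted p = 0.0539).

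The promoters of Neurog3 and Neurod1, the factor that defines the reporter and the one that follows it, and of the granin gene Chga are shown because these genes rose together. Each is the 250 bases before the RefSeq start site in build GRCm38.p6, 5′ to 3′ on the strand of the gene. Capitals mark the E-box CAGATG, the E-box of letters CAGCTG and the further form CATATG, each searched on both strands, which are letters that basic helix-loop-helix proteins can bind.
Neurog3 chr10:62132840-62133089 (+): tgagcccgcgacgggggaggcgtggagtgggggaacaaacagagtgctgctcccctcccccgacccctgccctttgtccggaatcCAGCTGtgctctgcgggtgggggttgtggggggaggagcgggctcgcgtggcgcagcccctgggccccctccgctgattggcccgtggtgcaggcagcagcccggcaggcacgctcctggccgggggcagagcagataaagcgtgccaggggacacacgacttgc
Neurod1 chr2:79456637-79456886 (-): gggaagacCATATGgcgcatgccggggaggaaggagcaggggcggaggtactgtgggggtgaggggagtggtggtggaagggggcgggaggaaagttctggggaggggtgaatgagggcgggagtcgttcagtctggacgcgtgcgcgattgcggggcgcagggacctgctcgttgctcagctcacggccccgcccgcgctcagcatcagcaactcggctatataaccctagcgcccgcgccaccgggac
Chga chr12:102554691-102554940 (+): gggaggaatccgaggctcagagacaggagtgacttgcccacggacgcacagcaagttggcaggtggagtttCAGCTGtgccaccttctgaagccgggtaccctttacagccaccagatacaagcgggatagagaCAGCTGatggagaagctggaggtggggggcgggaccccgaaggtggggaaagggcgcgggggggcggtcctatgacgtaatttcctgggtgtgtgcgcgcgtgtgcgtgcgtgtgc
The Neurog3 window held 1 CAGCTG, that of Neurod1 1 CATATG and that of Chga 2 CAGCTG. Over the same 250 bases before the start, CAGCTG was present in 212 of 1325 promoters of genes at least 8-fold higher. It was present in 98 of 735 promoters of genes at least 8-fold lower (13.3%) and in 1715 of 14014 promoters of tested genes (12.2%). Of all 32851 promoters in the table, 4271 held it. For CAGATG the shares were 12.6%, 14.7%, 10.2% and 14.4% in the same order. For CATATG they were 1.89%, 1.90%, 1.71% and 3.46%. A match describes letters and does not show a binding site.

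Hormone transcripts rose together but with wide spread between the EYFP replicates. Of 22 genes for gut peptide hormones and ghrelin acylation, 17 were tested and 16 rose, with a median log2 fold change of 5.77 (5.73 with Gast and Gal at their lower bounds). Without EYFP replicate 2 the median was 4.75. Of the tested genes, 5 averaged under 0.829 CPM in wild type. Tac1, the precursor of substance P in enterochromaffin cells, was at 2488 and 1382 CPM in EYFP cells against 12.6 and 11.04 CPM in wild type (log2 fold change 7.36, SE 0.37, adjusted p = 5.81e-06). Sct, which encodes secretin, was at 2014 and 3135 CPM in EYFP cells against 38.4 and 44.5 CPM in wild type (log2 fold change 5.96, SE 0.58, adjusted p = 0.000178). Mboat4, the enzyme that acylates ghrelin, was at 84.7 and 41.5 CPM in EYFP cells against 0.583 and 0.603 CPM in wild type (log2 fold change 6.71, SE 0.49, adjusted p = 4.21e-05). No wild-type value reached any EYFP value of these genes. Gip, the incretin of K cells, was at 2039 and 11598 CPM in EYFP cells against 92.2 and 158 CPM in wild type (log2 fold change 5.77, SE 0.93, adjusted p = 0.00234), with a several-fold difference between the EYFP replicates. Cck, the hormone of I cells, was at 1020 and 3022 CPM in EYFP cells against 48.1 and 47.8 CPM in wild type (log2 fold change 5.40, SE 0.64, adjusted p = 0.000578). Both were higher in EYFP replicate 2. Among leave-one-out values of the log2 fold change, that of Mboat4 was 6.10 with EYFP replicate 1 left out. That of Gip was 6.54 with EYFP replicate 1 left out and 4.02 with EYFP replicate 2 left out. That of Cck was 4.41 with EYFP replicate 2 left out.

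**Figure D2:**
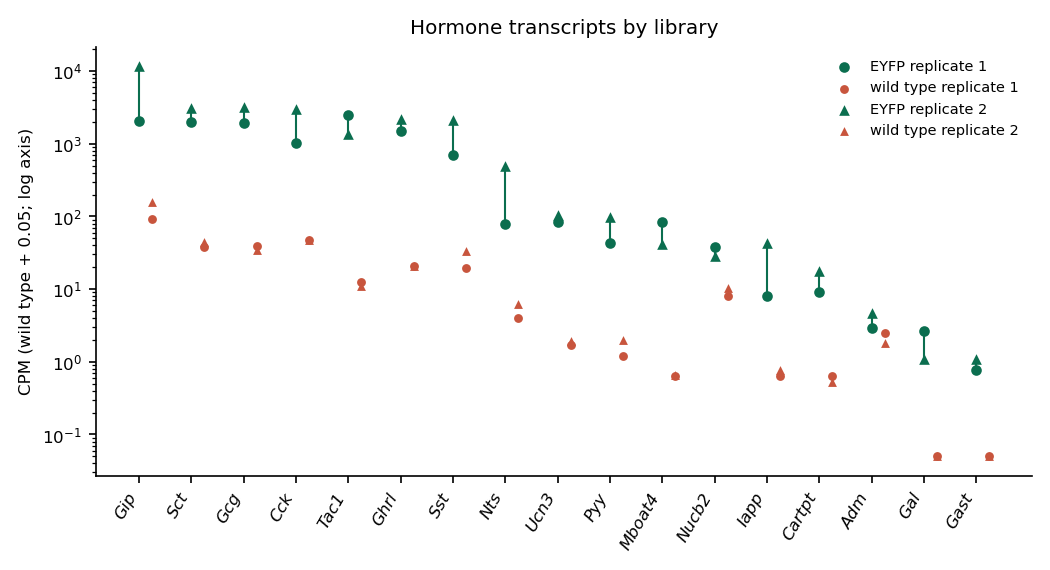
Levels of the 17 tested genes for hormones and ghrelin acylation in the 2 EYFP libraries (green, joined by a line) and the 2 wild-type libraries (red, with 0.05 CPM added so that values of 0 can be drawn), on a log axis of CPM, with circles for replicate 1 and triangles for replicate 2. Gip is at 2039 and 11598 CPM in the EYFP replicates, and Adm is the gene whose groups lie closest together.

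The other hormone genes are given as values, since they were chosen after these were seen. Gcg, the proglucagon gene, was at 1907 and 3236 CPM in EYFP cells against 38.8 and 34.3 CPM in wild type. Ghrl, which encodes ghrelin, was at 1521 and 2181 CPM in EYFP cells against 20.99 and 20.9 CPM in wild type. Sst, which encodes somatostatin, was at 695 and 2124 CPM in EYFP cells against 19.7 and 33.3 CPM in wild type. Of these, somatostatin differed most between the EYFP replicates. Nts, the neurotensin gene, was at 78.3 and 494 CPM in EYFP cells against 3.91 and 6.27 CPM in wild type, and its call was lost without wild-type replicate 1 (adjusted p = 0.137) or wild-type replicate 2 (adjusted p = 0.125). Pyy, the peptide YY gene, was at 42.99 and 98.5 CPM in EYFP cells against 1.17 and 1.93 CPM in wild type. Gal, which encodes galanin, was counted 0 times in wild type and was at least 18.6-fold higher. Gast, the gastrin gene, was likewise at 0 in wild type and at least 8.77-fold higher, with 0.775 and 1.09 CPM in EYFP cells. Adm, a vasodilator peptide gene expressed widely, was at 2.96 and 4.63 CPM in EYFP cells against 2.42 and 1.75 CPM in wild type and did not pass the test (log2 fold change 0.87, SE 0.48, adjusted p = 0.151). Insl5, Npy, Penk, Vip and Ppy were too low to be tested, the highest of them being Insl5 at 0.0705 and 0.673 CPM in the EYFP libraries.

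The serotonin pathway was divided. Of 13 tested genes, 7 rose and 5 fell, with a median log2 fold change of 1.3. The genes that rose serve synthesis, storage and sensing, and the genes that fell serve uptake and breakdown, with the exceptions of Spr and Gpr35. Tph1, the rate-limiting enzyme of serotonin synthesis outside the nervous system, was at 2165 and 1845 CPM in EYFP cells against 28.98 and 30.3 CPM in wild type (log2 fold change 6.08, SE 0.38, adjusted p = 1.35e-05). Ddc, the decarboxylase of the next step, was at 1430 and 1096 CPM in EYFP cells against 370.1 and 419 CPM in wild type (log2 fold change 1.68, SE 0.24, adjusted p = 0.000554). Trpa1, an irritant-sensing cation channel of enterochromaffin cells, was at 749 and 754 CPM in EYFP cells against 11.2 and 8.14 CPM in wild type (log2 fold change 6.28, SE 0.26, adjusted p = 3.48e-06). Of these 3 genes, Ddc alone exceeded 100 CPM in wild type, where absorptive cells also express it. Maoa, the mitochondrial enzyme that degrades serotonin, was at 55.3 and 71.6 CPM in EYFP cells against 1374 and 1589 CPM in wild type (log2 fold change -4.55, SE 0.26, adjusted p = 8.95e-06). Slc6a4, the serotonin reuptake transporter, was at 7.40 and 10.2 CPM in EYFP cells against 101.02 and 146 CPM in wild type (log2 fold change -3.82, SE 0.25, adjusted p = 1.51e-05). Both fell in both EYFP libraries relative to both wild-type libraries. Gch1, which starts the synthesis of the tetrahydrobiopterin cofactor, was at 360.5 and 233 CPM in EYFP cells against 17.99 and 14.8 CPM in wild type, and Spr, which completes it, at 36.9 and 28.6 CPM in EYFP cells against 89.02 and 94.3 CPM in wild type.

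The granins and prohormone-processing enzymes rose strongly. Of 20 genes tested, 16 rose and 2 fell, with a median log2 fold change of 5.88. Chgb, a granin of dense-core granules, was at 47155 and 33106 CPM in EYFP cells against 345 and 388 CPM in wild type (log2 fold change 6.78, SE 0.47, adjusted p = 1.86e-05), and took more counts in those libraries than any other gene. Chga, the related granin used as a general endocrine marker, was at 10628 and 9611 CPM in EYFP cells against 125.9 and 144 CPM in wild type (log2 fold change 6.23, SE 0.39, adjusted p = 1.31e-05). Bex2, a small adaptor protein gene of endocrine and nerve cells, was at 178 and 151 CPM in EYFP cells against 1.42 and 1.87 CPM in wild type (log2 fold change 6.62, SE 0.32, adjusted p = 6.98e-06). All 3 were alike between the EYFP replicates within 1.5-fold. Pcsk1, a convertase that cuts prohormones in granules, was at 949 and 866 CPM in EYFP cells against 13.7 and 18.1 CPM in wild type. Cpe, the carboxypeptidase that trims the cut peptides, was at 1430 and 1568 CPM in EYFP cells against 18.7 and 21.6 CPM in wild type. Pcsk6, a convertase of the general secretory pathway, fell from 18.8 and 33.8 CPM in wild type to 0.775 and 1.85 CPM (log2 fold change -4.35, SE 0.47, adjusted p = 0.000187), and its log2 fold change was -5.07 without EYFP replicate 2. Furin, the ubiquitous convertase, was at 77.4 and 68.1 CPM in EYFP cells against 99.3 and 137 CPM in wild type (log2 fold change -0.70, SE 0.20, adjusted p = 0.0163). For Furin, the call was lost without EYFP replicate 2 (adjusted p = 0.0941) and without wild-type replicate 2 (adjusted p = 0.0883), the log2 fold change then being -0.62 and -0.45. The endocrine convertase gene thus rose where those of the constitutive pathway did not.

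Genes of regulated exocytosis rose in the same libraries. Of 28 tested, 26 rose and 1 fell, with a median log2 fold change of 4.72, and 6 of them averaged under 0.829 CPM in wild type. Snap25, a membrane-fusion protein of the SNARE complex, was at 92.96 and 96.5 CPM in EYFP cells against 2.33 and 2.41 CPM in wild type (log2 fold change 5.31, SE 0.29, adjusted p = 8.88e-06). Rab3c, a vesicle GTPase, was at 840.1 and 556 CPM in EYFP cells against 3.75 and 4.82 CPM in wild type (log2 fold change 7.33, SE 0.42, adjusted p = 1.61e-05). Cplx1, a complexin that clamps fusion, was at 68.6 and 54.7 CPM in EYFP cells against 0.666 and 0.784 CPM in wild type (log2 fold change 6.38, SE 0.27, adjusted p = 3.59e-06). Relatives of Rab3c differed by smaller folds: Rab3a was at 23.4 and 20.4 CPM in EYFP cells against 7.16 and 7.54 CPM in wild type and Rab3d at 332 and 279 CPM in EYFP cells against 38.97 and 43.8 CPM in wild type. Sytl4, the granuphilin that tethers granules, was the only faller, at 2.33 and 2.27 CPM in EYFP cells against 6.0 and 4.94 CPM in wild type (log2 fold change -1.24, SE 0.23, adjusted p = 0.00231). Cadps2, a priming factor, was at 30.5 and 32.98 CPM in EYFP cells against 30.9 and 29.5 CPM in wild type and its relative Cadps at 185 and 190.5 CPM in EYFP cells against 2.33 and 2.29 CPM in wild type, both chosen after their values were seen.

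Ion channels of electrically excitable cells followed the same direction. Of 28 tested, 27 rose and none fell, with a median log2 fold change of 5.47 with Scn9a either fitted or at its lower bound, and 13 of them averaged under 0.829 CPM in wild type. Abcc8 and Kcnj11 together form the ATP-sensitive potassium channel that couples glucose metabolism to secretion. Abcc8 was at 111.99 and 251 CPM in EYFP cells against 3.58 and 2.77 CPM in wild type (log2 fold change 5.84, SE 0.47, adjusted p = 0.000123). Kcnj11 was at 32.8 and 50.98 CPM in EYFP cells against 0.25 and 0.905 CPM in wild type (log2 fold change 6.06, SE 0.47, adjusted p = 4.46e-05). Scn3a, a voltage-gated sodium channel, was at 519.5 and 401 CPM in EYFP cells against 3.25 and 4.16 CPM in wild type (log2 fold change 6.94, SE 0.27, adjusted p = 3.34e-06). Trpc4, a receptor-operated cation channel, was at 48.9 and 35.3 CPM in EYFP cells against 0.416 and 0.422 CPM in wild type (log2 fold change 6.62, SE 0.35, adjusted p = 6.98e-06). In the EYFP libraries all 4 exceeded 30 CPM, and in wild type all 4 stayed under 5 CPM. Cacna1a, the P/Q-type calcium channel subunit, was at 559 and 629 CPM in EYFP cells against 17.3 and 16.8 CPM in wild type. Asic1, an acid-sensing channel, was at 7.82 and 9.51 CPM in EYFP cells against 5.08 and 6.03 CPM in wild type and did not pass the test (log2 fold change 0.64, SE 0.33, adjusted p = 0.134). With single libraries left out, of the log2 fold changes that of Abcc8 was 5.14 with EYFP replicate 2 left out. That of Kcnj11 was 7.32 with wild-type replicate 2 left out.

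The receptors by which enteroendocrine cells sense nutrients and hormones rose as well. Of 21 tested, 19 rose and 1 fell, with a median log2 fold change of 5.24 (5.18 with Gprc6a at its lower bound), and 11 averaged under 0.829 CPM in wild type. Without EYFP replicate 2 the median was 4.36. Ffar1, a receptor for long-chain fatty acids, was at 12.8 and 20.4 CPM in EYFP cells against 0.0833 and 0.543 CPM in wild type (log2 fold change 5.56, SE 0.65, adjusted p = 0.000311). Ffar4, another long-chain fatty acid receptor, was at 11.1 and 17.8 CPM in EYFP cells against 1.58 and 1.21 CPM in wild type (log2 fold change 3.38, SE 0.32, adjusted p = 7.50e-05). Avpr1b, a vasopressin receptor, was at 37.9 and 37.7 CPM in EYFP cells against 0.5 and 0.0603 CPM in wild type (log2 fold change 7.19, SE 0.52, adjusted p = 2.83e-05). Sstr1, a somatostatin receptor, was at 265 and 197 CPM in EYFP cells against 2.58 and 3.32 CPM in wild type (log2 fold change 6.27, SE 0.58, adjusted p = 0.000296). Each had its lowest EYFP value above its highest wild-type value. Ffar2, the short-chain fatty acid receptor, was at 182 and 112.1 CPM in EYFP cells against 4.0 and 3.50 CPM in wild type, and Gipr, the receptor of the incretin GIP, at 34.8 and 31.2 CPM in EYFP cells against 0.416 and 0.543 CPM in wild type. Vipr1, a receptor for vasoactive intestinal peptide in absorptive epithelium, fell from 272 and 363 CPM to 23.9 and 38.6 CPM (log2 fold change -3.35, SE 0.27, adjusted p = 5.12e-05). Adra2a, an adrenergic receptor, was at 20.8 and 18.1 CPM in EYFP cells against 24.2 and 19.2 CPM in wild type and did not pass the test. Some of these folds depended on 1 library, and of the log2 fold changes that of Ffar1 was 4.91 with wild-type replicate 1 left out and 7.46 with wild-type replicate 2 left out. That of Avpr1b was 9.07 with wild-type replicate 1 left out and 6.21 with wild-type replicate 2 left out.

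RNA-binding and cytoskeletal genes best known from neurons were part of the rise. Of 32 listed, 23 were tested and 21 rose, none fell and the median log2 fold change was 4.59 (4.48 with Stmn3 at its lower bound). Of the tested genes, 12 averaged under 0.829 CPM in wild type. Elavl4, a neuronal RNA-stabilising protein gene, was at 9.44 and 8.66 CPM in EYFP cells against 0.0833 and 0.121 CPM in wild type, and its 237 counts in EYFP cells against 3 in wild type gave a ratio of levels of 86.6 (95% interval 29.3 to 423, Clopper-Pearson, for counting error only). Tubb3, the neuronal beta-tubulin, was at 65.5 and 42.3 CPM in EYFP cells against 0.583 and 0.241 CPM in wild type (log2 fold change 7.08, SE 0.46, adjusted p = 1.87e-05). Nefl, the light neurofilament, was at 20.7 and 33.6 CPM in EYFP cells against 0.167 and 0.0603 CPM in wild type, and its 694 counts against 3 gave a ratio of 254 (interval 86.4 to 1233). Celf3, a splicing regulator, was at 593 and 577 CPM in EYFP cells against 5.50 and 6.63 CPM in wild type, and Map1b, a microtubule-associated protein gene, at 270.2 and 262 CPM in EYFP cells against 3.16 and 3.08 CPM in wild type. Stmn2, Elavl2, Srrm4, Dcx, Prph and Gap43 were not tested, their highest EYFP level being that of Dcx at 0.423 and 1.01 CPM. Sox10 and Hand2, which mark enteric glia and neurons, were at 0 in the EYFP and wild-type libraries. When each library was omitted in turn, of the log2 fold changes that of Tubb3 was 7.74 with wild-type replicate 1 left out.

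**Figure D3:**
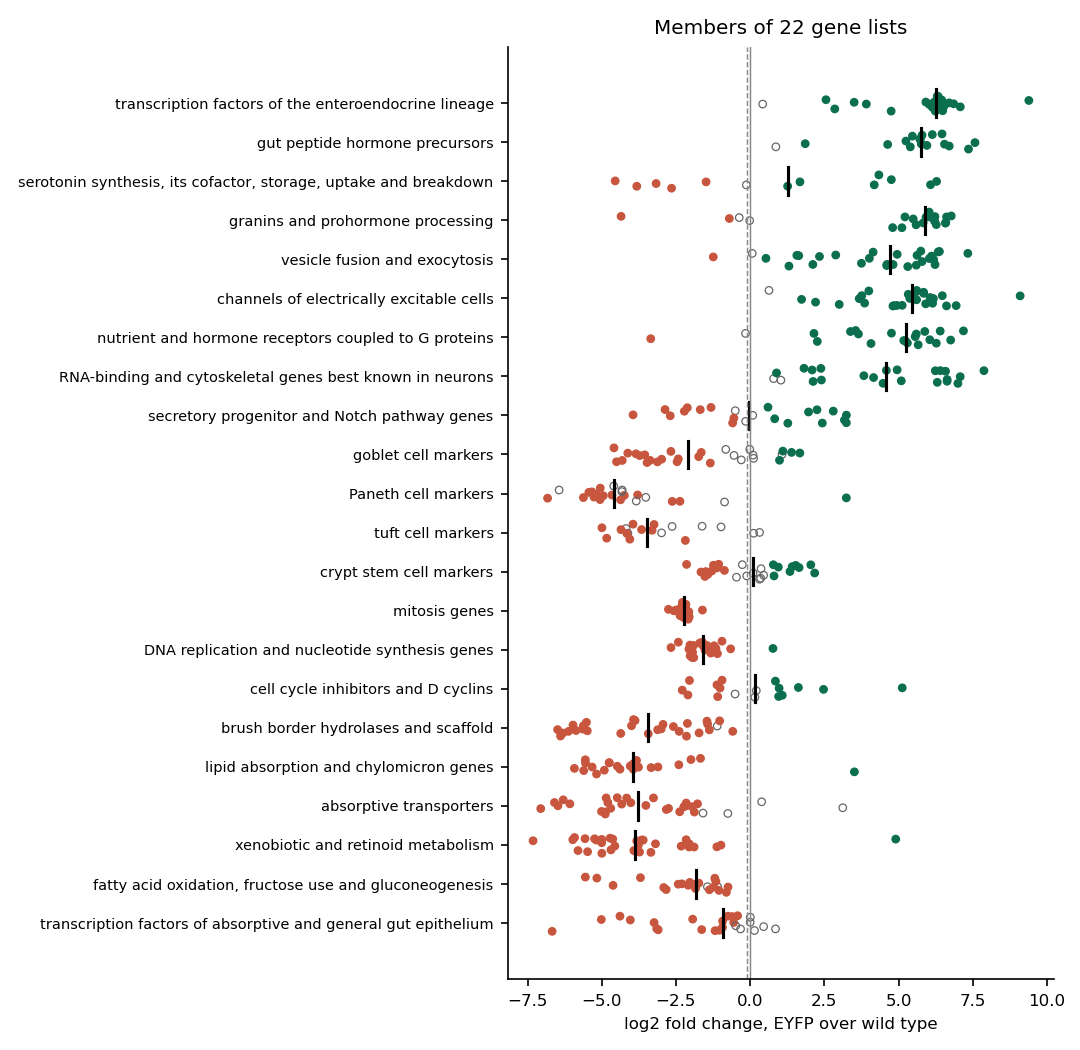
Log2 fold change of EYFP over wild type for every tested member of 22 gene lists, with filled green points for members that rose, filled red points for members that fell, open points for members that did not pass the test and a black bar at the median. The solid line marks 0 and the dashed line the median of all genes, and the medians of the first 8 lists lie to the right of both.

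Secretory progenitor genes and those of the Notch pathway, by which neighbouring cells choose between secretory and absorptive fates, moved in both directions. Of 22 tested, 10 rose and 9 fell, and the median log2 fold change was -0.0312, near that of all genes. Over all genes tested 27.1% rose and 33.5% fell. Without EYFP replicate 2, 6 rose and the median was -0.319, and without EYFP replicate 1 it was 0.207. Atoh1, the factor that commits cells to the secretory lineage, was at 2.96 and 4.71 CPM in EYFP cells against 8.66 and 15.6 CPM in wild type (log2 fold change -1.68, SE 0.33, adjusted p = 0.00386). Gfi1, a zinc finger repressor of goblet and Paneth progenitors, was at 0.352 and 0.505 CPM in EYFP cells against 4.41 and 8.74 CPM in wild type (log2 fold change -3.94, SE 0.44, adjusted p = 0.000176). Both were lower in each EYFP library than in each wild-type library. Cbfa2t3, a transcriptional corepressor, was at 82.3 and 80.3 CPM in EYFP cells against 7.83 and 9.29 CPM in wild type (log2 fold change 3.24, SE 0.15, adjusted p = 4.71e-06). Mfng, a glycosyltransferase that modifies Notch receptors, was at 17.3 and 16.99 CPM in EYFP cells against 1.25 and 2.29 CPM in wild type (log2 fold change 3.24, SE 0.45, adjusted p = 0.000553). Ligands differed from one another: Dll4 was at 192 and 139 CPM in EYFP cells against 16.2 and 20.3 CPM in wild type, Dll1 at 40.9 and 64.2 CPM in EYFP cells against 71.5 and 77.01 CPM in wild type without passing the test, and Jag1 at 7.40 and 11.4 CPM in EYFP cells against 23.7 and 22.9 CPM in wild type. Hes1, the main transcriptional target of Notch in crypts, fell from 82.6 and 44.8 CPM to 7.47 and 10.01 CPM. Nrarp, another Notch target, was at 7.89 and 5.97 CPM in EYFP cells against 35.6 and 29.1 CPM in wild type. Hes6, a related factor of differentiating endocrine cells that opposes Hes1, was at 127.5 and 121.6 CPM in EYFP cells against 48.4 and 54.8 CPM in wild type. Among leave-one-out values of the log2 fold change, that of Gfi1 was -3.36 with wild-type replicate 2 left out.

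Goblet cell markers were mostly lower. Of 28 tested, 17 fell and 4 rose, with a median log2 fold change of -2.08, which was -2.76 without EYFP replicate 2. Muc2, the main secreted mucin, was at 7.96 and 42.1 CPM in EYFP cells against 523 and 676 CPM in wild type (log2 fold change -4.59, SE 0.79, adjusted p = 0.00327). Clca3, a secreted metalloprotease gene of goblet cells listed under the current symbol Clca1, was at 7.89 and 53.2 CPM in EYFP cells against 290.2 and 1087 CPM in wild type (log2 fold change -4.50, SE 1.17, adjusted p = 0.0224). In both genes EYFP replicate 2 was several-fold above replicate 1 and still below wild type. Tff3, a trefoil peptide of mucus, was at 251 and 486 CPM in EYFP cells against 515 and 557 CPM in wild type and did not pass the test (log2 fold change -0.54, SE 0.43, adjusted p = 0.305). Foxa3, a forkhead factor of goblet and other secretory cells, was at 53.8 and 39.03 CPM in EYFP cells against 12.6 and 16.4 CPM in wild type (log2 fold change 1.68, SE 0.21, adjusted p = 0.000322). Creb3l1, Galnt12 and Gcnt3 also rose, which are a stress-sensing factor of secretory cells and glycosyltransferases of mucin-type chains, with Creb3l1 at 80.1 and 45.7 CPM in EYFP cells against 19.5 and 28.2 CPM in wild type. With single libraries left out, of the log2 fold changes that of Muc2 was -3.83 with EYFP replicate 1 left out and -6.24 with EYFP replicate 2 left out. That of Clca3 was -4.50 with EGFP replicate 2 left out (adjusted p = 0.0565), -3.69 with EYFP replicate 1 left out, -6.45 with EYFP replicate 2 left out, -5.16 with wild-type replicate 1 left out and -3.26 with wild-type replicate 2 left out (adjusted p = 0.0955).

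Paneth and tuft cell markers were lower as well, apart from single members. Of 23 Paneth markers tested, 15 fell and 1 rose, with a median of -4.59. Lyz1, the antibacterial lysozyme of Paneth granules, was at 276 and 123.6 CPM in EYFP cells against 4191 and 3348 CPM in wild type (log2 fold change -4.24, SE 0.45, adjusted p = 0.000144). Mmp7, the protease that activates defensins, was at 28.4 and 14.1 CPM in EYFP cells against 79.1 and 140.3 CPM in wild type (log2 fold change -2.36, SE 0.49, adjusted p = 0.00743). Mptx2, a pentraxin, was at 0.846 and 2.44 CPM in EYFP cells against 98.8 and 265 CPM in wild type (log2 fold change -6.82, SE 0.81, adjusted p = 0.00128). Defa24, an alpha-defensin, was at 179.9 and 111.4 CPM in EYFP cells against 4924 and 9376 CPM in wild type (log2 fold change -5.62, SE 0.47, adjusted p = 4.44e-05), and its reads may be shared with near-identical defensin genes. Wnt3, the Wnt ligand of Paneth cells, went against the list at 51.9 and 51.99 CPM in EYFP cells against 4.75 and 6.15 CPM in wild type (log2 fold change 3.24, SE 0.20, adjusted p = 1.12e-05). Of 18 tuft markers tested, 10 fell and none rose, with a median of -3.48 (-3.27 with Gng13 at its bound), and 9 of them averaged under 0.829 CPM in the EYFP libraries. Without EYFP replicate 1 the number that fell was 6, and without wild-type replicate 1 it was 16. The median of the list was -1.7 without wild-type replicate 2, with 4 members above 0, and -4.15 without wild-type replicate 1. Pou2f3, the factor that defines tuft cells, was at 0.282 and 0.252 CPM in EYFP cells against 2.66 and 5.79 CPM in wild type (log2 fold change -3.95, SE 0.61, adjusted p = 0.000918). Dclk1, a kinase used as their marker, was at 0.634 and 1.43 CPM in EYFP cells against 3.58 and 15.4 CPM in wild type (log2 fold change -3.24, SE 0.85, adjusted p = 0.0182). Some of these folds depended on 1 library, and of the log2 fold changes that of Lyz1 was -4.93 with EYFP replicate 1 left out. That of Mmp7 was -2.96 with EYFP replicate 1 left out. That of Mptx2 was -6.21 with EYFP replicate 1 left out, -7.74 with EYFP replicate 2 left out and -5.95 with wild-type replicate 2 left out. That of Pou2f3 was -3.27 with wild-type replicate 2 left out. That of Dclk1 was -2.74 with EYFP replicate 1 left out (adjusted p = 0.112), -3.90 with EYFP replicate 2 left out (adjusted p = 0.0613), -3.92 with wild-type replicate 1 left out and -1.82 with wild-type replicate 2 left out.

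Genes of mitosis and DNA replication were lower with 1 exception. All 24 mitosis genes fell, with a median log2 fold change of -2.22 and a range of -2.75 to -1.61. Mki67, a protein of proliferating nuclei, was at 55.5 and 90.9 CPM in EYFP cells against 431 and 269 CPM in wild type (log2 fold change -2.26, SE 0.31, adjusted p = 0.000665). Cdk1, the kinase that starts mitosis, was at 10.4 and 12.8 CPM in EYFP cells against 58.9 and 43.96 CPM in wild type (log2 fold change -2.15, SE 0.20, adjusted p = 7.29e-05). Bub1, a spindle checkpoint kinase, was at 3.45 and 5.89 CPM in EYFP cells against 38.9 and 23.8 CPM in wild type (log2 fold change -2.75, SE 0.33, adjusted p = 0.00031). All 24 were higher in EYFP replicate 2 than in replicate 1 and yet below both wild-type libraries in the genes named. Of 25 genes for DNA replication and nucleotide synthesis, 24 fell and 1 rose, with a median of -1.59. Pcna, the sliding clamp of replication, was at 68.9 and 82.8 CPM in EYFP cells against 237 and 161 CPM in wild type (log2 fold change -1.39, SE 0.22, adjusted p = 0.000964). Mcm2, a helicase subunit, was at 31.8 and 28.3 CPM in EYFP cells against 74.2 and 59.5 CPM in wild type (log2 fold change -1.15, SE 0.20, adjusted p = 0.00158). Rrm2, the regulated subunit of ribonucleotide reductase, was at 5.29 and 7.74 CPM in EYFP cells against 48.7 and 33.8 CPM in wild type (log2 fold change -2.67, SE 0.27, adjusted p = 0.000109). Pola1, the catalytic polymerase subunit that works with primase, was the riser, at 58.8 and 36.7 CPM in EYFP cells against 34.2 and 22.01 CPM in wild type (log2 fold change 0.77, SE 0.28, adjusted p = 0.0489). When each library was omitted in turn, of the log2 fold changes that of Pola1 was 0.91 with EGFP replicate 1 left out (adjusted p = 0.0524), 0.77 with EGFP replicate 2 left out (adjusted p = 0.0746), 0.39 with EYFP replicate 1 left out (adjusted p = 0.293) and 0.48 with wild-type replicate 2 left out (adjusted p = 0.212).

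Inhibitors of the cell cycle and D cyclins were mixed, with 7 of 17 tested higher and 7 lower. The shares over all genes tested were 27.1% and 33.5%. Cdkn1c, the inhibitor p57, showed the largest difference, at 211 and 192 CPM in EYFP cells against 5.0 and 6.45 CPM in wild type (log2 fold change 5.13, SE 0.27, adjusted p = 9.01e-06). Cdkn1a, the inhibitor p21, was at 681 and 596 CPM in EYFP cells against 185 and 229 CPM in wild type (log2 fold change 1.63, SE 0.21, adjusted p = 0.000391). Cdkn1b, the inhibitor p27, was at 126.9 and 92.2 CPM in EYFP cells against 66.4 and 46.4 CPM in wild type (log2 fold change 0.96, SE 0.22, adjusted p = 0.00592). Gadd45g, a growth arrest gene, was at 120.9 and 166 CPM in EYFP cells against 16.6 and 34.9 CPM in wild type (log2 fold change 2.47, SE 0.36, adjusted p = 0.00147). All 4 lay higher in both EYFP libraries than in both wild-type libraries. Cdkn2b, the inhibitor p15, fell from 97.9 and 120.7 CPM to 22.7 and 22.1 CPM (log2 fold change -2.29, SE 0.23, adjusted p = 0.000121). Among cyclins that drive entry into the cycle, Ccnd1 was at 25.9 and 18.6 CPM in EYFP cells against 113.4 and 77.4 CPM in wild type and Ccnd3 at 72.7 and 70.2 CPM in EYFP cells against 35.98 and 31.5 CPM in wild type, so that they differed in opposite directions.

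Crypt stem cell markers were mixed too, with 9 of 27 higher and 10 lower and a median log2 fold change of 0.1, which was -0.176 without EYFP replicate 1. Lgr5, the Wnt-responsive receptor that marks crypt-base stem cells, was at 10.99 and 8.41 CPM in EYFP cells against 26.6 and 19.4 CPM in wild type (log2 fold change -1.24, SE 0.31, adjusted p = 0.00916). Ascl2, the factor of the same cells, was at 4.58 and 3.11 CPM in EYFP cells against 8.16 and 7.96 CPM in wild type (log2 fold change -1.06, SE 0.30, adjusted p = 0.0162). Mecom, a zinc finger factor, was at 4.09 and 4.04 CPM in EYFP cells against 15.8 and 20.02 CPM in wild type (log2 fold change -2.14, SE 0.39, adjusted p = 0.00248). Olfm4, a secreted crypt-base glycoprotein, was at 372 and 400.0 CPM in EYFP cells against 1376 and 843 CPM in wild type. These genes fell, whereas Smoc2, Axin2, Ephb2, Znrf3, Rgmb and Sox9, other crypt genes on the list, were at 83.3% to 137% of wild type and did not pass the test. Ephb3, a receptor that positions cells in the crypt, rose to 314% of wild type. Cd44, an adhesion receptor of the crypt, was at 171 and 173 CPM in EYFP cells against 39.5 and 36.7 CPM in wild type (log2 fold change 2.17, SE 0.15, adjusted p = 1.61e-05). Hopx, an atypical homeobox gene linked to the reserve position above the crypt base, was at 416 and 331 CPM in EYFP cells against 83.6 and 97.3 CPM in wild type (log2 fold change 2.04, SE 0.18, adjusted p = 5.35e-05). Bmi1, a Polycomb protein linked to the same position, was at 65.5 and 60.9 CPM in EYFP cells against 24.9 and 22.4 CPM in wild type. Among leave-one-out values of the log2 fold change, that of Lgr5 was -1.06 with EYFP replicate 2 left out (adjusted p = 0.0584) and -1.0 with wild-type replicate 1 left out (adjusted p = 0.0502). That of Ascl2 was -0.82 with EYFP replicate 2 left out (adjusted p = 0.0977).

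Genes of absorptive cells fell in EYFP cells to very different remaining levels. In the brush border, the membrane of microvilli on which digestion ends, 28 of 29 genes fell and none rose, with a median log2 fold change of -3.43. Alpi, the intestinal alkaline phosphatase, was at 21 and 44.3 CPM in EYFP cells against 1463 and 1521 CPM in wild type (log2 fold change -5.52, SE 0.41, adjusted p = 4.44e-05). Sis, the sucrase-isomaltase, was at 392 and 721 CPM in EYFP cells against 2471 and 4207 CPM in wild type (log2 fold change -2.59, SE 0.42, adjusted p = 0.00152). Ace, the angiotensin-converting enzyme, was at 16.6 and 40.1 CPM in EYFP cells against 1374 and 3702 CPM in wild type (log2 fold change -6.49, SE 0.71, adjusted p = 0.00045). The level left in EYFP cells was thus 1.12% of wild type for Ace and 16.7% for Sis. At the upper end stood Ush1c, a scaffold protein of microvillus tips, at 183 and 238 CPM in EYFP cells against 261 and 369.8 CPM in wild type, which is 66.7% (log2 fold change -0.59, SE 0.22, adjusted p = 0.0489). Of the 29 genes, 11 were under 5% of wild type and 9 at 20% or more. The latter were Ush1c, Myo7b, Xpnpep2, Krt20, Eps8, Cdhr5, Dpp4, Ezr and Cdhr2, of which the peptidase Xpnpep2, at 46.4%, did not pass the test. They held scaffold and cytoskeletal genes as well as the peptidases Dpp4 and Xpnpep2, while other such genes were lower, from 6.57% for the scaffold gene Pdzk1 to 19.1% for Vil1, which encodes the actin-bundling protein villin. With single libraries left out, of the log2 fold changes that of Alpi was -6.15 with EYFP replicate 2 left out. That of Ace was -7.26 with EYFP replicate 2 left out and -5.61 with wild-type replicate 2 left out. That of Ush1c was -0.42 with EGFP replicate 1 left out (adjusted p = 0.158), -0.59 with EGFP replicate 2 left out (adjusted p = 0.0672), -0.41 with EYFP replicate 1 left out (adjusted p = 0.256), -0.79 with EYFP replicate 2 left out (adjusted p = 0.05) and -0.32 with wild-type replicate 2 left out (adjusted p = 0.24).

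Lipid absorption and chylomicron genes followed. Of 25 genes, 24 fell and 1 rose, with a median log2 fold change of -3.95. Apoa4, a chylomicron apolipoprotein, was at 69.4 and 164 CPM in EYFP cells against 5263 and 8889 CPM in wild type (log2 fold change -5.92, SE 0.53, adjusted p = 7.96e-05). Fabp2, the intestinal fatty acid binding protein, was at 74.9 and 149 CPM in EYFP cells against 4503 and 5999 CPM in wild type (log2 fold change -5.55, SE 0.42, adjusted p = 2.93e-05). Fabp1, its liver-type relative, was at 42.1 and 110.9 CPM in EYFP cells against 3256 and 4196 CPM in wild type (log2 fold change -5.61, SE 0.51, adjusted p = 0.000107). All EYFP values of these genes were under 200 CPM and all wild-type values above 3000 CPM. Scarb1, a receptor for high-density lipoprotein that also takes up carotenoids, went the other way at 106.4 and 123.7 CPM in EYFP cells against 14.7 and 5.79 CPM in wild type (log2 fold change 3.51, SE 0.45, adjusted p = 0.000846). Some of these folds depended on 1 library, and of the log2 fold changes that of Apoa4 was -6.67 with EYFP replicate 2 left out. That of Fabp1 was -6.47 with EYFP replicate 2 left out. That of Scarb1 was 4.31 with wild-type replicate 1 left out.

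The promoters of Apoa4, Fabp2 and Alpi are shown as the windows of leading genes that fell, again as 250 bases before the RefSeq start in build GRCm38.p6, 5′ to 3′ on the strand of the gene. Capitals mark CAAAGT, part of the motif of the enterocyte factors HNF4, and GTTAAT, part of the motif of HNF1, on either strand, with ACTTTG as CAAAGT read on the other strand.
Apoa4 chr9:46240594-46240843 (+): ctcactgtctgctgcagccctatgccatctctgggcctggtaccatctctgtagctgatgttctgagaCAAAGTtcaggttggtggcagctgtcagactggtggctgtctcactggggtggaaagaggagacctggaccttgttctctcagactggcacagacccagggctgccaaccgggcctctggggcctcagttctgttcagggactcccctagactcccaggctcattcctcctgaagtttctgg
Fabp2 chr3:122894822-122895071 (+): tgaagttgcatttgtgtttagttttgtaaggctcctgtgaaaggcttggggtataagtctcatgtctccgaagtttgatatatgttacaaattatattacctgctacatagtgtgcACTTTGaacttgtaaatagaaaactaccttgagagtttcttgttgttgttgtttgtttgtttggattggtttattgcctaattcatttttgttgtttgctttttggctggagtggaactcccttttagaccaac
Alpi chr1:87101607-87101856 (-): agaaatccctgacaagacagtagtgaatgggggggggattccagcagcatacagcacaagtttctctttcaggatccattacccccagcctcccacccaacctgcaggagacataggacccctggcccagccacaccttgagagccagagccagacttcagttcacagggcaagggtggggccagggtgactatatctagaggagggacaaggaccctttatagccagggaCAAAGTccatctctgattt
Each window held 1 CAAAGT and no GTTAAT. Over the 250 bases before the start, CAAAGT was present in 16.6% of promoters of genes at least 8-fold lower and in 9.51% of those of genes at least 8-fold higher. It was present in 10.7% of those of tested genes and in 12.6% of all promoters in the table. By list, 6 of 19 promoters of lipid absorption genes, 8 of 33 of brush border genes and 8 of 34 of absorptive transporter genes held it. Among lists that mostly rose, it was in 6 of 24 promoters of ion channel genes and 3 of 30 of endocrine factors. Of granin and convertase genes 1 of 19 promoters held it, and of vesicle fusion genes 0 of 25. The share was thus not raised only in lists that fell. The shares for GTTAAT were 7.07%, 5.43%, 4.37% and 6.43% in the order of the sets above.

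Absorptive transporters spanned a wide range of folds. Of 30 tested, 26 fell and none rose, with a median log2 fold change of -3.77, which was -3.01 without wild-type replicate 2. Slc5a1, the sodium-glucose cotransporter, was at 124.8 and 165 CPM in EYFP cells against 1206 and 3488 CPM in wild type (log2 fold change -4.02, SE 0.53, adjusted p = 0.000825). Slc15a1, the peptide transporter, was at 26.9 and 56.2 CPM in EYFP cells against 218 and 729 CPM in wild type (log2 fold change -3.51, SE 0.81, adjusted p = 0.0179). Slc2a2, the basolateral glucose transporter, was at 1.83 and 3.28 CPM in EYFP cells against 170.4 and 503 CPM in wild type (log2 fold change -7.05, SE 0.78, adjusted p = 0.000964), which is 0.752% of wild type. Slc28a1, a nucleoside transporter, was at 1.48 and 5.47 CPM in EYFP cells against 184 and 472 CPM in wild type (log2 fold change -6.59, SE 0.81, adjusted p = 0.0015). Wild-type replicate 2 exceeded replicate 1 for each of these, which touches the size of the fold and not its direction. Slc6a19, the neutral amino acid transporter, was at 121.3 and 192 CPM in EYFP cells against 238 and 701 CPM in wild type, and Slc36a1, the proton-coupled amino acid transporter, at 352 and 296 CPM in EYFP cells against 161 and 334 CPM in wild type, and neither passed the test. When each library was omitted in turn, of the log2 fold changes that of Slc5a1 was -3.06 with wild-type replicate 2 left out. That of Slc15a1 was -3.07 with EYFP replicate 1 left out (adjusted p = 0.0875), -4.14 with EYFP replicate 2 left out (adjusted p = 0.0538), -4.14 with wild-type replicate 1 left out and -2.39 with wild-type replicate 2 left out. That of Slc2a2 was -6.08 with wild-type replicate 2 left out. That of Slc28a1 was -5.90 with EYFP replicate 1 left out, -7.79 with EYFP replicate 2 left out and -5.77 with wild-type replicate 2 left out.

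**Figure D4:**
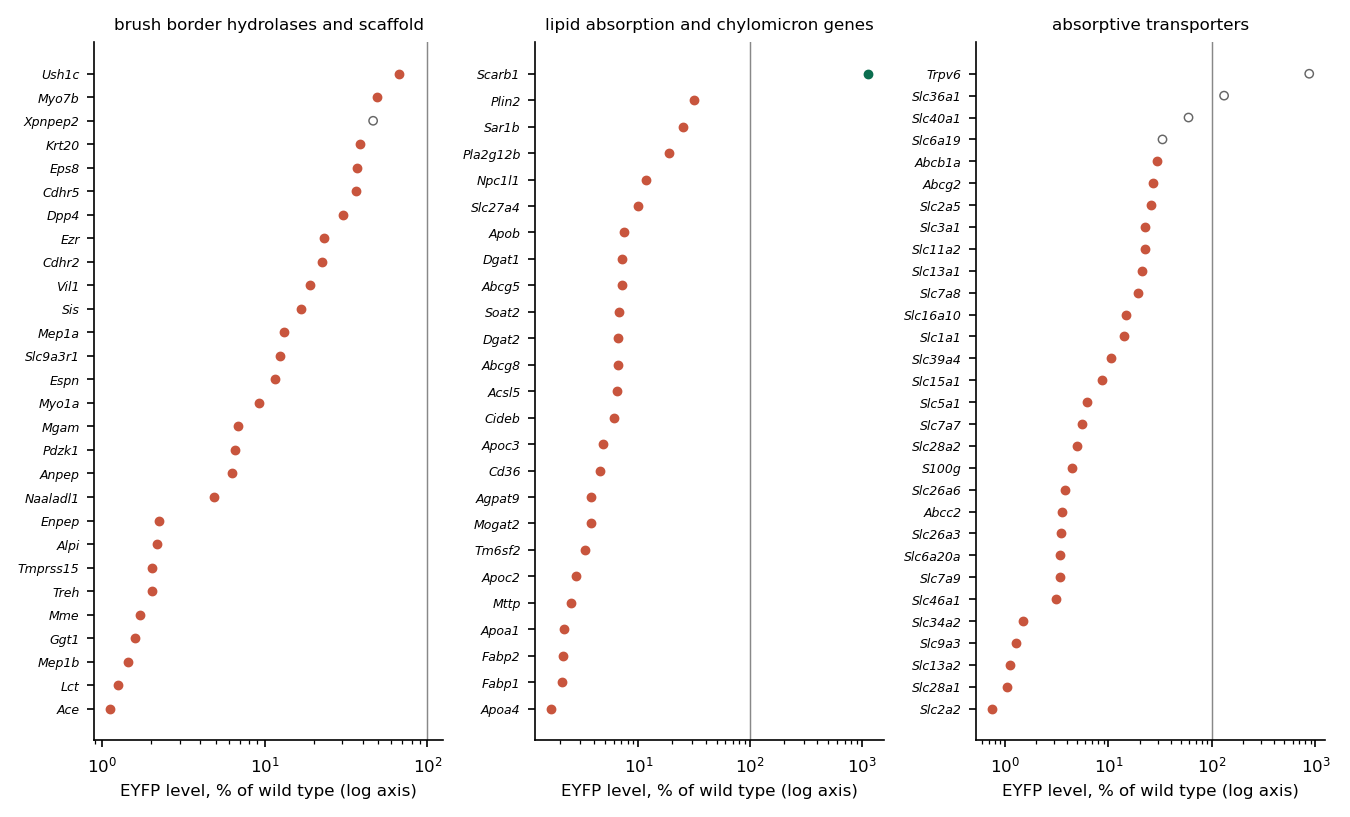
Mean level in EYFP cells as a percentage of the mean level in wild type, on a log axis, for tested members of 3 absorptive lists, with red points for members that fell, green for members that rose and open points for members that did not pass the test. The grey line marks 100%, and the members spread from 0.752% for Slc2a2 to values above 100%.

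Genes for xenobiotic and retinoid metabolism fell, 31 of 32, with 1 riser and a median log2 fold change of -3.88. Cyp3a11, the main drug-metabolising cytochrome of mouse gut, was at 16.3 and 36.4 CPM in EYFP cells against 815 and 569.7 CPM in wild type (log2 fold change -4.72, SE 0.49, adjusted p = 0.000353). Cyp2c65, an epoxygenase, was at 102.1 and 129.4 CPM in EYFP cells against 457 and 500.0 CPM in wild type (log2 fold change -2.05, SE 0.23, adjusted p = 0.000199). Cyp1a1, which is induced through the aryl hydrocarbon receptor, was at 0 and 0.336 CPM in EYFP cells against 38.2 and 14.4 CPM in wild type (log2 fold change -7.31, SE 0.92, adjusted p = 0.000687). Cyp3a25 was at 4.09 and 10.01 CPM in EYFP cells against 419 and 459 CPM in wild type (log2 fold change -5.98, SE 0.41, adjusted p = 5.42e-05). All 4 were lower in each EYFP library than in each wild-type library. Bco1, the enzyme that cleaves beta-carotene to retinal, rose instead, at 73.4 and 64.8 CPM in EYFP cells against 2.58 and 2.05 CPM in wild type (log2 fold change 4.91, SE 0.30, adjusted p = 1.14e-05). Like Scarb1 above, which takes up carotenoids, it was an exception within its list. Among leave-one-out values of the log2 fold change, that of Cyp3a11 was -5.41 with EYFP replicate 2 left out. That of Cyp1a1 was -6.24 with EYFP replicate 1 left out, at least 115-fold lower with EYFP replicate 2 left out and -6.45 with wild-type replicate 1 left out. That of Cyp3a25 was -6.75 with EYFP replicate 2 left out.

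Fatty acid oxidation, fructose use and gluconeogenesis genes fell by less. Of 22 tested, 20 fell and none rose, with a median log2 fold change of -1.82. Cpt1a, the enzyme that admits fatty acids to mitochondria, was at 143 and 181 CPM in EYFP cells against 317 and 226 CPM in wild type (log2 fold change -0.75, SE 0.24, adjusted p = 0.0307). G6pc, which releases free glucose, was at 0.987 and 3.20 CPM in EYFP cells against 73.2 and 118.6 CPM in wild type. Pck1, the rate-limiting enzyme of gluconeogenesis, was at 3.81 and 27.2 CPM in EYFP cells against 327 and 773 CPM in wild type (log2 fold change -5.16, SE 1.12, adjusted p = 0.0174). For Pck1 the EYFP replicates differed several-fold. Khk, the enzyme that phosphorylates fructose, was at 17.1 and 25.9 CPM in EYFP cells against 433 and 619.8 CPM in wild type. With single libraries left out, of the log2 fold changes that of Cpt1a was -0.59 with EGFP replicate 1 left out (adjusted p = 0.0797), -0.58 with EYFP replicate 1 left out (adjusted p = 0.16) and -0.49 with wild-type replicate 1 left out (adjusted p = 0.155). That of Pck1 was -4.34 with EYFP replicate 1 left out, -7.17 with EYFP replicate 2 left out and -4.42 with wild-type replicate 2 left out (adjusted p = 0.059).

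Transcription factors of absorptive and general gut epithelium were lower in 17 of 24 cases, higher in none, with a median log2 fold change of -0.929. Hnf4a, a nuclear receptor active throughout the epithelium, was at 490.0 and 459 CPM in EYFP cells against 985 and 955 CPM in wild type (log2 fold change -1.03, SE 0.17, adjusted p = 0.0013). Hnf4g, its paralogue of villus cells, was at 51.6 and 71 CPM in EYFP cells against 493 and 556 CPM in wild type. Cdx2, the homeobox factor of intestinal identity, was at 225 and 174 CPM in EYFP cells against 162 and 235 CPM in wild type (log2 fold change 0.01, SE 0.21, adjusted p = 0.979), with overlapping groups. Maf, a leucine zipper factor of mature enterocytes, was at 1.27 and 2.94 CPM in EYFP cells against 144 and 278 CPM in wild type (log2 fold change -6.67, SE 0.51, adjusted p = 9.69e-05). Creb3l3, a membrane-bound factor of lipid metabolism, was at 8.60 and 21.4 CPM in EYFP cells against 439 and 524 CPM in wild type (log2 fold change -5.01, SE 0.49, adjusted p = 0.00028). Among these examples the differences of Hnf4a and Cdx2, active in all epithelial lineages, were the smallest. Pdx1, the duodenal and pancreatic homeobox factor, was at 13.7 and 13.96 CPM in EYFP cells against 10.1 and 5.31 CPM in wild type and did not pass the test. Some of these folds depended on 1 library, and of the log2 fold changes that of Maf was -7.37 with EYFP replicate 2 left out. That of Creb3l3 was -5.81 with EYFP replicate 2 left out.

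**Figure D5:**
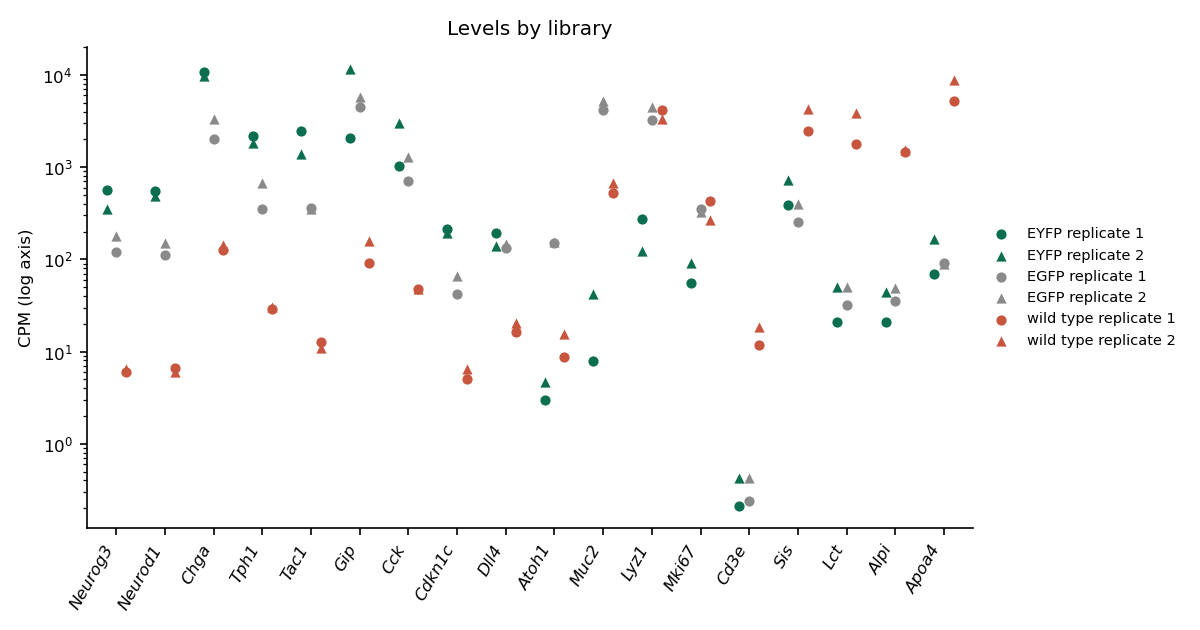
Level in CPM, on a log axis, of 18 genes in every library, with green for EYFP, grey for EGFP and red for wild type, circles for replicate 1 and triangles for replicate 2. Neurog3 to Dll4 are high in EYFP cells and low in wild type, Sis to Apoa4 the reverse, and Atoh1, Muc2 and Mki67 are low in EYFP cells and high in EGFP cells.

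General epithelial genes were mixed, with 4 of 14 higher and 7 lower, against 27.1% and 33.5% of all genes tested. Epcam, the adhesion molecule of epithelia, was at 575 and 658 CPM in EYFP cells against 1608 and 1612 CPM in wild type (log2 fold change -1.39, SE 0.19, adjusted p = 0.000528). Vim, an intermediate filament gene usual in mesenchyme, was at 1721 and 884 CPM in EYFP cells against 12.5 and 13.7 CPM in wild type (log2 fold change 6.63, SE 0.38, adjusted p = 1.18e-05), beside stromal collagen Col1a1 at 0.564 and 1.01 CPM in EYFP cells against 0.0833 and 8.92 CPM in wild type. Krt7 was at 908 and 849.6 CPM in EYFP cells against 91.4 and 83.8 CPM in wild type and Cldn4 at 586 and 479.7 CPM in EYFP cells against 73.6 and 49.7 CPM in wild type, which encode a keratin and a tight junction protein of simple epithelia. Cldn15, a pore-forming claudin of the small intestine, fell from 622 and 851 CPM to 41.2 and 54.8 CPM (log2 fold change -3.94, SE 0.24, adjusted p = 1.20e-05). The 4 risers were Vim, Krt7, Cldn4 and Krt18.

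All 27 genes for mitochondrial respiration fell, with a median log2 fold change of -1.56 and a range of -2.26 to -1.01. Cox4i1, a cytochrome oxidase subunit, was at 259.6 and 254 CPM in EYFP cells against 711 and 876 CPM in wild type (log2 fold change -1.63, SE 0.18, adjusted p = 0.000144). Atp5o, a subunit of the ATP synthase stalk, was at 126.2 and 117.2 CPM in EYFP cells against 538 and 628 CPM in wild type (log2 fold change -2.26, SE 0.16, adjusted p = 2.23e-05). Genes of cytosolic ribosomes differed by less and depended on the scaling. Of 30, 10 fell and none rose, with a median of -0.51. The share that fell, 33.3%, was near the 33.5% of all genes tested. With DESeq2 size factors 5 fell. Without a single library the number was 2 (EGFP replicate 1 or EYFP replicate 2), 3 (EYFP replicate 1), 4 (wild-type replicate 1), 5 (EGFP replicate 2) and 28 (wild-type replicate 2). Of 22 genes for protein folding in the endoplasmic reticulum, 2 rose and 1 fell. Hspa5, the main chaperone there, was at 1812 and 1877 CPM in EYFP cells against 1508 and 1090 CPM in wild type and did not pass the test (log2 fold change 0.51, SE 0.28, adjusted p = 0.157). The risers were Pdia6 and Sec61b, and without EYFP replicate 1 or without wild-type replicate 2 no member rose.

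Interferon response and antigen presentation genes were lower. Of 19 genes of interferon response and class I presentation, 16 fell and none rose, with a median log2 fold change of -2.07. B2m, the shared light chain of class I molecules, was at 166 and 186 CPM in EYFP cells against 1232 and 1364 CPM in wild type (log2 fold change -2.88, SE 0.19, adjusted p = 1.54e-05). Ifit1, an interferon-induced gene, was at 0.493 and 2.27 CPM in EYFP cells against 20.4 and 36 CPM in wild type (log2 fold change -4.39, SE 0.61, adjusted p = 0.00108). Of 7 class II genes, 5 fell, and their summed level was 122.8 and 47.4 CPM in EYFP cells and 3421 and 380 CPM in wild type, so that wild-type replicate 1 carried most of it. The number of class II genes that fell was 1 without either EYFP replicate, 2 without EGFP replicate 2 and 3 without EGFP replicate 1, and 5 and 7 without wild-type replicates 1 and 2. Of 17 immediate early and heat shock genes, which respond to stimulation and tissue handling, 6 rose and none fell. The shares of all genes tested that rose and fell were 27.1% and 33.5%. Fos was at 2564 and 2894 CPM in EYFP cells against 2108 and 2144 CPM in wild type (log2 fold change 0.36, SE 0.22, adjusted p = 0.188) and Klf2 at 218 and 239 CPM in EYFP cells against 26.6 and 22.9 CPM in wild type (log2 fold change 3.21, SE 0.17, adjusted p = 6.43e-06). When each library was omitted in turn, of the log2 fold changes that of Ifit1 was -3.63 with EYFP replicate 1 left out and -5.82 with EYFP replicate 2 left out.

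Markers of other cell types were checked for their part in either group. Lymphocyte and other immune markers summed to 239 and 37.9 CPM in EYFP cells against 717 and 784 CPM in wild type, and 15 of 18 tested fell. Cd3e, a T cell receptor component, was at 0.211 and 0.421 CPM in EYFP cells against 11.7 and 18.4 CPM in wild type (log2 fold change -5.57, SE 0.49, adjusted p = 5.04e-05), and Gzma, a granule protease of intraepithelial lymphocytes, at 3.45 and 6.90 CPM in EYFP cells against 212 and 219.6 CPM in wild type. Lyz2, the lysozyme of macrophages and a near copy of Lyz1, was at 207 and 0.168 CPM in EYFP cells against 2.58 and 2.65 CPM in wild type and did not pass the test, and without EYFP replicate 1 its log2 fold change was -3.88 where it was 5.30 with it. Of 5 stromal markers tested, 2 rose, Pecam1 at 18.7 and 14.6 CPM in EYFP cells against 1.42 and 2.29 CPM in wild type and Myh11 at 1.34 and 1.09 CPM in EYFP cells against 0.0833 and 0.121 CPM in wild type, while Cdh5 and Kdr, which define endothelium, and Acta2 and Des, which define smooth muscle, were under 1 CPM in all 4 libraries. All 3 tested neuronal and glial markers rose, among them Ret, a neurotrophic receptor, at 117.6 and 123.1 CPM in EYFP cells against 2.25 and 2.29 CPM in wild type (log2 fold change 5.72, SE 0.32, adjusted p = 1.12e-05). Of 12 pancreatic markers 2 were tested, and 1 fell, Rnase1, at 2.18 and 5.80 CPM in EYFP cells against 31.98 and 52.5 CPM in wild type, a call that did not hold without either EYFP replicate or without wild-type replicate 2. The exocrine and islet genes Prss1, Ptf1a, Ins1 and Ins2 were at 0 in all 4 libraries. Of 2 red blood cell markers tested, 1 rose, Alas2, at 0.987 and 1.51 CPM in EYFP cells against 0.416 and 0.121 CPM in wild type, and not without EYFP replicate 2 or wild-type replicate 2. Of 9 tested markers of gut region, 6 fell, among them Guca2b, a villus peptide gene, at 8.39 and 18.2 CPM in EYFP cells against 484 and 938 CPM in wild type. The part of these cells in the differences above was not tested.

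Outside the lists, the 10 largest rises among genes at 10 CPM or more in both EYFP libraries belonged to Grin2c, Gabra2, Ccdc154, Tmem200a, Pak3, Dennd2a, Stac, Pappa2, Coch and Trpc7. Pappa2, a protease that cleaves insulin-like growth factor binding proteins, was at 424 and 253 CPM in EYFP cells against 1.75 and 1.75 CPM in wild type (log2 fold change 7.59, SE 0.32, adjusted p = 4.55e-06). Pak3, a kinase with a known part in endocrine and nerve cells, was at 119.5 and 99.5 CPM in EYFP cells against 0.749 and 0.362 CPM in wild type (log2 fold change 7.66, SE 0.30, adjusted p = 3.32e-06). Grin2c, a subunit of NMDA-type glutamate receptors, was at 54.3 and 33.3 CPM in EYFP cells against 0 and 0.181 CPM in wild type, and Gabra2, a subunit of GABA-A receptors, at 13.5 and 17.2 CPM in EYFP cells against 0 and 0.0603 CPM in wild type. Trpc7, a cation channel, was at 117.2 and 90.2 CPM in EYFP cells against 0.333 and 0.784 CPM in wild type. In each of these 5 genes no wild-type library exceeded 2 CPM. The 10 largest falls at 10 CPM or more in both wild-type libraries belonged to AA467197, Cyp2c29, Sprr2a2, Gdpd2, Sectm1b, Slc2a7, Gda, Slc7a15, Gimap4 and Pdlim2. Gda, which deaminates guanine, was at 8.74 and 15.9 CPM in EYFP cells against 883 and 1594 CPM in wild type (log2 fold change -6.66, SE 0.45, adjusted p = 3.29e-05). Sprr2a2, a small proline-rich protein gene of the villus, was at 7.61 and 15.3 CPM in EYFP cells against 710.1 and 2957 CPM in wild type. Gimap4, a GTPase of lymphocytes, was at 0.211 and 0.336 CPM in EYFP cells against 22.6 and 29.4 CPM in wild type (log2 fold change -6.54, SE 0.37, adjusted p = 8.51e-06). AA467197 was at 0.705 and 0.336 CPM in EYFP cells against 19.9 and 162 CPM in wild type, and its call was lost without EYFP replicate 1 (adjusted p = 0.113) or EYFP replicate 2 (adjusted p = 0.123).

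Among the genes with the highest CPM in EYFP cells, Chgb, Chga and Gip were followed by genes that are high in both groups, apart from Reg4. Reg4, a secreted lectin of secretory cells, was at 4123 and 6016 CPM in EYFP cells against 150.5 and 414 CPM in wild type (log2 fold change 4.17, SE 0.59, adjusted p = 0.000941), and its log2 fold change was 5.07 without wild-type replicate 2. Krt8, the main keratin of simple epithelium, was at 2586 and 2677 CPM in EYFP cells against 3910 and 3724 CPM in wild type (log2 fold change -0.54, SE 0.23, adjusted p = 0.0769). Pigr, the receptor that carries antibodies into the lumen, was among the highest in wild type and fell from 8485 and 9856 to 1471 and 1569 CPM (log2 fold change -2.59, SE 0.28, adjusted p = 0.000138). Genes that were counted in only one of the groups were few: 80 genes were at 1 CPM or more in both EYFP libraries with 0 counts in wild type, 14 genes the reverse, and 0 genes did so at 10 CPM or more in either direction.

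The genes that rose were longer than those that fell. The median genomic length was 29.7 kb for 3744 genes that rose, 20.8 kb for 4638 that fell and 22.7 kb for 13817 tested genes with a length. Genes over 100 kb made up 19.8% of those that rose, 9.29% of those that fell and 12.5% of those tested. Among genes at least 8-fold different the shares were 23.1% of those higher and 6.91% of those lower. These are descriptions of the called sets, and the part of read length or RNA quality in them was not tested.

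Set beside the sorted EGFP cells, some lists differed in most members and others in few. The EYFP libraries share with those cells the isolation by reporter but not the allele number, strain background or summed level of sex-linked genes. Both comparisons rest on the same EYFP libraries. Of all genes tested, 2343 (16.8%) had a higher level in EYFP cells than in EGFP cells and 2702 (19.4%) a lower one. Endocrine factors were higher in 25 of 26 cases, ion channels in 17 of 28 and hormone genes in 4 of 17. Neurod1 was at 112.04 and 149 CPM in EGFP cells (log2 fold change 1.98, adjusted p = 0.000411, EYFP over EGFP). Goblet markers were lower in 25 of 28 cases and mitosis genes in 24 of 24. For brush border genes 2 of 29 were lower and none higher, and for lipid absorption genes 5 of 25 were lower and 1 higher. Apoa4 was at 90.7 and 88.1 CPM in EGFP cells (log2 fold change 0.39, adjusted p = 0.521). Against wild type, 19.6% of all genes were higher and 21.9% lower in EGFP cells, where 24 of 28 goblet markers were higher and 28 of 29 brush border genes lower.

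The EYFP replicates themselves differed in a patterned way. Of 29 brush border genes, 26 were higher in EYFP replicate 2, as were 25 of 25 lipid absorption genes, 23 of 28 goblet markers, 24 of 24 mitosis genes and 13 of 17 hormone genes, against 6485 of 13935 genes tested. Of 26 endocrine factors, 9 were. The wild-type replicates differed as well, with 28 of 29 brush border genes and 27 of 28 goblet markers higher in replicate 2. Of all 13935 genes tested, 8031 were higher in wild-type replicate 2. All 24 of 24 mitosis genes were higher in wild-type replicate 1. Replicates of a group carry no order, and with 2 libraries a group these differences have no test. Without EYFP replicate 2 the comparison with wild type gave 27 brush border genes lower and 24 mitosis genes lower, and without EYFP replicate 1 it gave 26 and 24.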

How the data were processed

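The deposited count table held estimated counts per gene, which the authors made from single-end reads of 50 bases; the submitters' processing notes name mm10, RSEM 1.3.1, Bowtie2, DESeq2 1.26.0 and FastQC 0.11.8, without roles. A second table held the authors' signal per library (counts divided by a size factor), linear fold changes as a ratio and adjusted p-values, and served only as a cross-check. The sources used here give no strand setting, so that overlapping and antisense genes, and near-identical copies, are uncertain.

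Counts were rounded, and 13935 of 23845 genes (58.4%) passed filterByExpr. A model with 3 group means was fitted to all 6 libraries with edgeR 4.0.16 in R 4.3.3 (trimmed mean of M-values scaling, robust quasi-likelihood F test, 3 residual degrees of freedom before moderation), with Benjamini-Hochberg adjustment over all genes and a threshold of 0.05. The scripts were tested on simulated data. Levels (CPM) are counts scaled to a common library total. Standard errors were derived from the F statistic. For a group at 0, 3 counts over its libraries served as the floor, and 1 to 3 counts an exact 95% Clopper-Pearson interval. Such intervals and floors cover counting error only. Alternatives were DESeq2 1.42.0, other scalings and filters, the 4 libraries alone, a fold of 2 and each library left out.

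The members and gene lists were chosen with earlier results of these data known. Of 762 symbols on 36 lists, 759 had a row. In each list the first symbol and the largest riser and faller at 10 CPM or more were named, in the main lists also the second of each, and outside the lists the 10 largest in each direction and the most abundant; other genes were named after their values were seen. RefSeq promoters were matched by symbol for 11021 tested genes. A few genes that the rule names are not reported here.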

Additional observations from a re-analysis of the deposited data

Results flagged for a closer look

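Over all genes tested, 146 were lower than wild type in EYFP cells, higher than wild type in EGFP cells and different between the reporter groups in the model over all libraries, and 14 showed the reverse. The 146, out of 13935 genes tested, held 15 of 28 tested goblet markers, 6 of 23 Paneth markers and 2 of 22 secretory and Notch genes. They also held 1 of 18 tuft markers, 1 of 24 mitosis genes, 1 of 24 enterocyte factors and 1 of 28 vesicle fusion genes. Values follow for the 5 of them that the naming rule picked. Both comparisons with wild type share the wild-type libraries. Muc2, the goblet cell mucin, had a log2 fold change of -7.55 for EYFP over EGFP, a comparison that all 5 had to pass to be among the 146. For Gfi1, the repressor of goblet and Paneth progenitors, the value was -6.85. For Pou2f3, the tuft cell factor, it was -5.68. For Atoh1, the secretory commitment factor, it was -5.32. For Mmp7, the Paneth cell protease, it was -4.64. The 5 sex-linked genes on the lists summed to 138 and 151 CPM in EYFP cells against 966 and 969 CPM in EGFP cells. None of the 5 passed the test between these groups. Strain, reporter and these sex-linked levels differ together with allele number between the groups and cannot be told apart.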

How the results depend on the processing

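No called gene named in the text reversed its direction under the alternatives listed in the methods, but the balance of some divided lists turned. Among named genes that did not pass the test, Lyz2 changed sign when EYFP replicate 1 was left out. Without wild-type replicate 2, the log2 fold change of Col1a1 went from -2.55 to 3.07 and that of Xist from -7.96 to 0.30. A test against a fold of 2 left 2212 genes higher and 2199 lower. Under it, members higher were 6 of the secretory and Notch list, 1 of the goblet list, 3 of the cell cycle exit list, 0 of the folding list, 2 of the immediate early list and 0 of the blood list. Members lower were 5 of the stem list, 3 of the cell cycle exit list, 13 of fat and sugar metabolism, 9 of the enterocyte factors, 0 of the ribosomal genes and 2 of class II. Ribosomal genes lower were 5 with DESeq2 size factors and 3 in the 4 libraries alone. Class II genes lower were 3 in the 4 libraries alone and 1 without a filter, where 0 pancreatic markers were lower. The DESeq2 Wald test gave 5 folding genes and 10 immediate early genes higher. The cause of these changes was not tested.

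Leaving out each library in turn gave 3139 to 4224 genes higher and 3707 to 4498 lower, with more higher than lower without EGFP replicate 1 (4224 and 3860) and in the 4 libraries alone (4184 and 3826). Members above and below 0 went from 14 and 13 to 13 and 14 in the stem list without EYFP replicate 1, from 9 and 8 to 8 and 9 in the cell cycle exit list without EYFP replicate 2, from 11 and 11 to 10 and 12 in the secretory and Notch list without EYFP replicate 2 and to 12 and 10 without EGFP replicate 1. The stromal median went from -1.5 over 5 members to 3.54 without wild-type replicate 2 and to 3.14 over 3 members with at least 10 counts in both libraries of a group. Of class II genes the median was -4.5 and became -2.1 without wild-type replicate 1 and -5.39 without wild-type replicate 2. Members higher ranged from 6 to 10 in the secretory and Notch list, 0 to 2 in folding, 0 to 1 in blood and 0 to 4 in sex-linked genes, the 4 being those without wild-type replicate 1. Members lower ranged from 6 to 16 in tuft, 2 to 28 in ribosome, 1 to 7 in class II and 0 to 1 in pancreas. An arm left with 1 library is assumed to vary like the other groups.

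The replicate numbers did not pair the samples: deviations of same-numbered libraries correlated at 0.0143 between EYFP and wild type, 0.0224 between EYFP and EGFP and 0.0964 between EGFP and wild type. With the replicate number as a block, 3850 genes were higher and 4780 lower, with 18 ribosomal genes and 0 pancreatic markers lower. The authors' deposited table held 14631 genes, with 3871 higher and 3748 lower in EYFP cells; of 13911 genes in both tables, 7303 were called the same way and 0 the opposite way.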

Other observations

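Some gene families moved largely in one direction, and they were chosen after their values were seen. Reads may be shared among related protocadherin genes, such as the most abundant risers Pcdhgc3, Pcdhgb6, Pcdhgc4, Pcdhga7 and Pcdhgb7. This was not tested, and their counts may not stand for separate genes. Of 35 tested protocadherin genes (symbols starting with Pcdh), which encode cell adhesion molecules, 32 were higher in EYFP cells and 2 lower, and 28 to 32 were higher when each library was left out in turn. All 6 tested subunits of GABA-A receptors (Gabr) were higher in each of those fits. Of 328 zinc finger genes named Zfp, 148 were higher and 24 lower, but 49 and 5 against a fold of 2, and 2 of the 328 stand on the lists.

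Genes of mitochondria lay on the other side. Of 77 tested mitochondrial ribosome genes (Mrp), 62 were lower and 1 higher, with 9 lower against a fold of 2. Of 44 tested complex I genes (Nduf), 42 were lower and none higher, with 17 lower against a fold of 2. The respiration list already held 12 of these, and of the 32 others 30 were lower. Family counts are read against 27.1% of all genes higher and 33.5% lower.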
